A study of Mus musculus with 2 samples.

Results

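The insulin-like growth factor (IGF) axis was described through 10 genes in perivascular cells (PCs) of the mouse aorta, the ligands Igf1 and Igf2, the receptors Igf1r and Igf2r, and the binding proteins Igfbp2 to Igfbp7. The genes were chosen by name, with earlier results of these data known, and all 10 were found among the 20211 gene symbols measured. RNA was sequenced from primary PCs of C57BL/6 mice grown in DMEM, with 1 library of wild type (WT) cells and 1 of Kai1 knockout (Kai1-/-) cells. Kai1 (Cd82) encodes a membrane protein of the tetraspanin family, and the question was how its loss in PCs relates to their gene expression. The labels give 10% FBS for both cultures, whereas the culture methods of the study give a higher percentage for such cells, and the serum itself contains IGFs and their binding proteins. The study used adult mice of both sexes, and the age and sex of the animals behind each library, and how many were pooled, are not given in the sources used here. With 1 library per genotype there are no replicates, so no value below has a test or a p-value.

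IGF1 and IGF2 are secreted peptides related to insulin. IGF1R is a receptor tyrosine kinase that signals through IRS proteins to PI3K and AKT and to MAP kinases, whereas IGF2R carries IGF2 to lysosomes and also sorts lysosomal enzymes tagged with mannose 6-phosphate. In tissue fluid the IGFs are held by the IGFBPs, which keep them from the receptor until a protease cuts the binding protein. In the vessel wall IGF1 is known as a growth and survival factor of smooth muscle and mural cells.

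Expression is given in RPKM, the reads of a gene scaled by its length and by the reads mapped in the library, which can be compared between genes of a library because it is per length. Differences are given as the log2 ratio of the Kai1-/- to the WT library after adding 0.1 RPKM to both, a scale that understates the difference of genes with low values. A fold with an interval is the plain ratio of the RPKM values, with a 95% interval from the reads estimated to lie behind them. The intervals cover counting error only, not the difference between cultures, and they use the longest coding transcript, so a shorter transcript in use would widen them. A gene was called higher or lower when it passed 2-fold and its RPKM, averaged over the pair of libraries, was 1 or more.

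**Figure D1:**
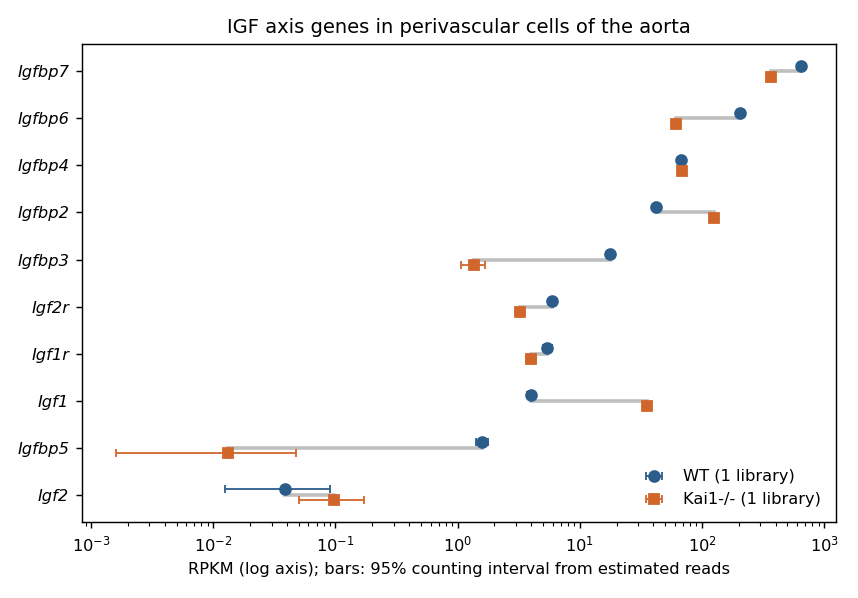
RPKM of the 10 IGF axis genes on a log axis, ordered by WT level, with blue circles for the WT library and orange squares for the Kai1-/- library. Bars are 95% counting intervals from estimated reads. Igf1 and Igfbp2 lie further right in the Kai1-/- library, and Igfbp3, Igfbp5 and Igfbp6 further left.

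The depth was estimated at 29400000 reads for the WT library and 26900000 for the Kai1-/- library, from the spacing of low values. The targeted gene Cd82 was at 12.8 RPKM in WT cells and 2.62 in Kai1-/- cells, 20.5% of the WT level. Mural markers such as Acta2 (3823 and 2580 RPKM), Pdgfrb (44.7 and 31.6 RPKM) and Cspg4 (15.4 and 8.27 RPKM) were measured in both libraries, but the pericyte markers Rgs5, Kcnj8 and Abcc9 were below 1 RPKM in each. The 4 Y-linked genes examined were above 0 in the WT library and at 0 in the Kai1-/- library, so sex and genotype cannot be told apart here.

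Igf1 (ENSMUSG00000020053), on chromosome 10 (plus strand) from 87321010 to 87399792 of the NCBI37 (mm9) build, which all positions here follow, was at 3.95 RPKM in WT cells and 35.4 in Kai1-/- cells. The Kai1-/- library was 8.96-fold higher (interval 8.32 to 9.65), a log2 ratio of 3.13, from an estimated 804 and 6590 reads. The reads assume its longest annotated coding transcript of 7121 bases, and the shortest has 510. It was the member with the highest ratio, and 0.238% of the 10068 genes kept had a higher one. In WT cells Igf1 ranked below both receptors by RPKM, whereas in Kai1-/- cells it ranked above both. In bulk RNA, more cells that express a gene and more RNA per cell cannot be told apart.

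Igf2, the fetal ligand and an imprinted gene, lies on chromosome 7 (minus strand) from 149836673 to 149852721. It was at 0.0387 RPKM in WT cells and 0.0975 in Kai1-/- cells, an estimated 5 and 12 reads. The ratio of 2.52 had an interval from 0.827 to 9.13, so a difference was not detectable at this depth. Nearly all of the ligand RNA measured was that of Igf1 in each library. Igf2 and Igf1 both overlap annotated antisense transcripts, and the sources used here do not state whether reads were counted by strand.

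The receptors differed less than Igf1. Igf1r, on chromosome 7 (plus strand) from 75097713 to 75371484, was at 5.43 RPKM in WT cells and 4.0 in Kai1-/- cells, a log2 ratio of -0.43. Igf2r, on chromosome 17 (minus strand) from 12875272 to 12962530, had 5.91 and 3.21 RPKM, a log2 ratio of -0.86. Both were lower in the Kai1-/- library and within 2-fold. The counting intervals of the receptors overlapped in the WT library (5.02 to 5.87 RPKM for Igf1r and 5.62 to 6.22 for Igf2r) and did not in the Kai1-/- library (3.63 to 4.40 and 2.98 to 3.45). A comparison between genes also depends on the transcript lengths in use, which these intervals do not cover, so the overlap is no test of a difference. Igf2r overlaps Airn, the antisense RNA known to silence its paternal copy, which was not analysed here.

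Igf1 RNA per Igf1r RNA, as a quotient of RPKM values within a library, was 0.727 in WT cells and 8.85 in Kai1-/- cells. A quotient of this kind does not depend on how the libraries were scaled to each other. Igf1r per Igf2r was 0.919 and 1.25.

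The binding proteins held the highest levels of the axis. Igfbp7, Igfbp6 and Igfbp4 led in the WT library, and Igfbp7, Igfbp2 and Igfbp4 in the Kai1-/- library. The 4 members Igfbp2, Igfbp3, Igfbp5 and Igfbp6 lay furthest apart between the libraries among the binding proteins. The DNA just before their annotated starts is shown so that the control regions of these 4 genes can be compared. For Igf1, all 150 bases of the RefSeq window lie in annotated exons, and that window is not shown. Capitals mark the motifs searched on both strands: TATA-like letters (TATAAA and also TATATA and also TTTAAA), the GC box with letters GGGCGG, and the CCAAT box. The sequences run 5′ to 3′ along the gene's strand and, unless stated, end at the base before the RefSeq start (GRCm38.p6). The window of each matched its own NCBI37 chromosome once along that strand, and other chromosomes were not searched. Positions are those of the bases shown.

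Igfbp2, chr1:72870904-72871053, plus strand: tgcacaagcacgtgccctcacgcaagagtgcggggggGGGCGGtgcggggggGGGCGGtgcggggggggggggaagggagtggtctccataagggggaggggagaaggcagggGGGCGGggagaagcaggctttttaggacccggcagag
Igfbp3, chr11:7113927-7114076, minus strand: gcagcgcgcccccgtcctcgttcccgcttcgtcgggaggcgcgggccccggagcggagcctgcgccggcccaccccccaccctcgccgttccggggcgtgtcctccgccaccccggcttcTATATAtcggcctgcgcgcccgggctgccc
Igfbp5, chr1:72921459-72921589, minus strand, without the 19 bases that GENCODE M1 places in the first exon: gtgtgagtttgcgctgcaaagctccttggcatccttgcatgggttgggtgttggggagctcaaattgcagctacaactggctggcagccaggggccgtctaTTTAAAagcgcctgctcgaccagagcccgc
Igfbp6, chr15:101974467-101974616, plus strand: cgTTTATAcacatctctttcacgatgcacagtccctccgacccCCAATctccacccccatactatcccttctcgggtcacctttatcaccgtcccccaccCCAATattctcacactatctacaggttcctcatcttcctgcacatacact

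The Igfbp2 window shown held 3 GC boxes, no TATA-like letters and 72% G and C. RefSeq lists a second Igfbp2 start, 884 bases after that of GENCODE, whose window held none of the motifs and 54% G and C and is not shown. The Igfbp3 window held TATATA from 30 to 25 bases before the start and 78.7% G and C. The Igfbp5 window held TTTAAA from 49 to 44 bases before the RefSeq start, and the whole window was 55.3% G and C. The Igfbp6 window held 2 CCAAT boxes and the reverse complement of TATAAA far from the start, and the RefSeq start lies 176 bases before that of GENCODE. Of 32851 RefSeq promoter windows of 150 bases, 15.1% held TATA-like letters, 28.6% the GC box and 24.5% the CCAAT box, with a median of 54% G and C. A p53 half-site was found in 4.01% of those windows and in none of the 4 shown. These matches describe letters in short windows and no binding was measured.

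Igfbp2, which binds both IGFs and carries an integrin-binding motif, was at 42.4 RPKM in WT cells and 126 in Kai1-/- cells. It was 2.97-fold higher in the Kai1-/- library (interval 2.79 to 3.16), a log2 ratio of 1.57, and 2.31% of the genes kept had a higher ratio. Its gene on chromosome 1, from 72871077 to 72899048, ends 5457 bases from the end of Igfbp5, which runs toward it on the other strand.

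Igfbp5, a binding protein that attaches to extracellular matrix, lies from 72904506 to 72921458 and differed in the other direction from this neighbour. It was at 1.59 RPKM in WT cells and 0.0132 in Kai1-/- cells, an estimated 271 and 2 reads. The WT library was 120.0-fold higher, with a counting interval from 32.9 to 996. With a mean of 0.800 RPKM the gene was not among those kept, and its log2 ratio was -3.90 with the added 0.1 RPKM and -6.91 without it.

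Igfbp3, the main carrier of IGFs in blood and a gene known to respond to p53 and TGF-beta, was at 17.7 RPKM in WT cells and 1.35 in Kai1-/- cells. The WT library was 13.1-fold higher (interval 10.5 to 16.6), a log2 ratio of -3.62, from an estimated 1161 and 81 reads. Of the genes kept, 0.516% had a lower ratio. Igfbp3 lies on chromosome 11 (minus strand) from 7106089 to 7113926, 3539 bases from Igfbp1, which was listed at 0 in both libraries.

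Igfbp6, which prefers IGF2 to IGF1, lies on chromosome 15 (plus strand) from 101974793 to 101979942. It was at 203 RPKM in WT cells and 60.8 in Kai1-/- cells. The WT library was 3.34-fold higher (interval 3.15 to 3.54), a log2 ratio of -1.74, and 3.04% of the genes kept had a lower ratio. Its neighbours differed little, with 23.2 and 22.6 RPKM for Spryd3 and 2.13 and 1.82 RPKM for Soat2.

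Igfbp7, a low-affinity member of the family secreted by vascular cells, was the most abundant of the 10 genes in both libraries. It had 645 RPKM in WT cells and 364 in Kai1-/- cells, 56.4% of the WT level and a log2 ratio of -0.83. The gene lies on chromosome 5 (minus strand) from 77778265 to 77837070, and overlaps Polr2b on the other strand, which had 17.4 and 16.3 RPKM.

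Igfbp4, an inhibitory carrier of IGFs that is cut by pappalysin, had 67.0 RPKM in WT cells and 68.3 in Kai1-/- cells. The ratio of 1.02 had an interval from 0.973 to 1.07, and its log2 value of 0.03 took the other sign, -0.05, -0.10 and -0.47, when the libraries were scaled to an equal median ratio, an equal upper quartile or Gapdh. The gene lies on chromosome 11 (plus strand) from 98902558 to 98913969. Its neighbour Top2a, a topoisomerase of dividing cells, had 14.3 and 37.0 RPKM.

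**Figure D2:**
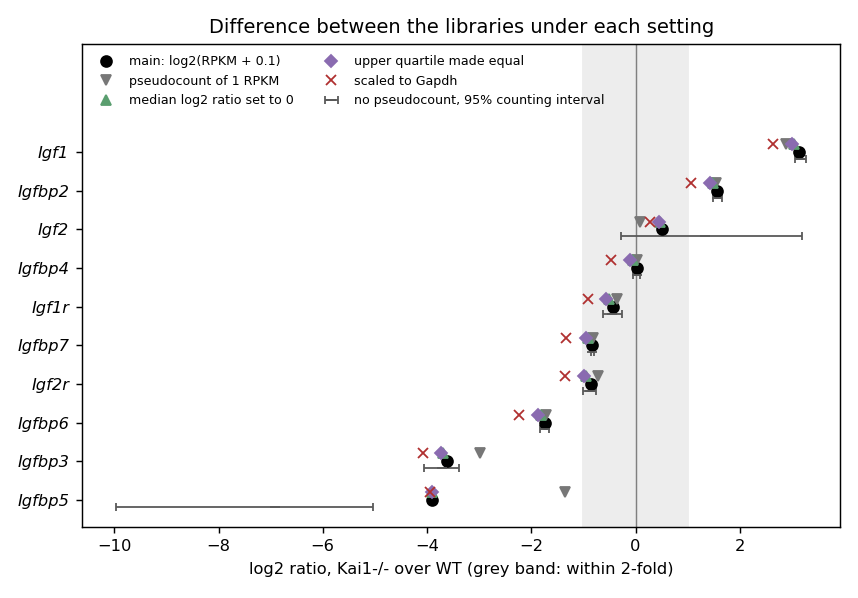
The log2 ratio (Kai1-/- over WT) of each IGF axis gene under 5 settings, with the plain ratio and its 95% counting interval drawn as a bar. The grey band marks values within 2-fold. Igf1 and Igfbp2 lie right of the band under every setting, Igfbp3, Igfbp5 and Igfbp6 left of it, and Igf2r and Igfbp7 leave it when the libraries are scaled to Gapdh.

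Of the 10 members, 8 passed the filter on mean RPKM. Among these 8, Igf1 and Igfbp2 were higher by more than 2-fold, beside 7.98% of all genes kept. Igfbp3 and Igfbp6 were more than 2-fold lower, beside 7.81% of all genes kept, and the other 4 were within 2-fold. The median log2 ratio was -0.63 over the 8 members and 0.08 over all genes kept. Without the filter, 2 of the 10 members were higher and 3 lower, beside 5.96% and 9.29% of all 20211 genes.

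The split of calls over all genes depended on scaling. Of the genes kept, 803 were higher and 786 lower as deposited, against 278 higher and 1856 lower when Gapdh (4238 RPKM in WT cells and 5997 in Kai1-/- cells) was made equal. That scaling moved the median of all genes to -0.41. Under it Igf2r (-1.34) and Igfbp7 (-1.33) also passed 2-fold, which made 4 members lower, and Igf1 (2.63) and Igfbp2 (1.07) were still more than 2-fold higher. The RPKM totals were also unequal, at 884463 (WT) and 1238190 (Kai1-/-). Making these totals equal would shift ratios downward, the same direction as scaling to Gapdh, but its effect on the calls was not tested.

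Markers of cell state and of other cells also differed between the libraries, and their part in the values above was not tested. For reference, 7.98% of all genes kept were more than 2-fold higher and 7.81% lower. Of 18 cell cycle genes, 15 passed 2-fold upward in Kai1-/- cells, with a summed level of 385 RPKM in WT cells and 975 in Kai1-/- cells. Of 10 mural markers kept, 5 were lower (Tagln, Cnn1, Myh11, Mcam and Lmod1) and 5 were within 2-fold. The 16 measured summed to 5026 and 3204 RPKM, mostly Acta2. Of 10 adventitial fibroblast markers kept, 4 were lower and 1 (Cd34) higher, with sums of 2692 and 1606 RPKM.

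Macrophages are a known source of IGF1. The summed level of the 15 macrophage and leukocyte markers measured was 41.0 RPKM in WT cells and 19.5 in Kai1-/- cells. Any part of such cells in the Igf1 values was not tested. Of 5 kept, 4 were lower in Kai1-/- cells: Csf1r (11.7 and 2.66 RPKM), Tyrobp (10.4 and 2.37), Fcer1g (11.3 and 2.47) and Lyz2 (3.44 and 1.09). Cd14 was higher, with 1.98 RPKM in WT cells and 10.3 in Kai1-/- cells. Emr1 was at 0 and Ptprc below 0.1 RPKM in both libraries. The 16 endothelial markers summed to 46.8 and 30.0 RPKM, mostly Eng, with 6 of them at 0 in WT cells and 12 in Kai1-/- cells. Of the 3 endothelial markers kept, Egfl7 was higher, with 2.28 RPKM in WT cells and 7.39 in Kai1-/- cells. The other 2 were within 2-fold. The 9 adipocyte markers summed to 14.1 and 6.80 RPKM, with Adipoq at 0 in both.

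**Figure D3:**
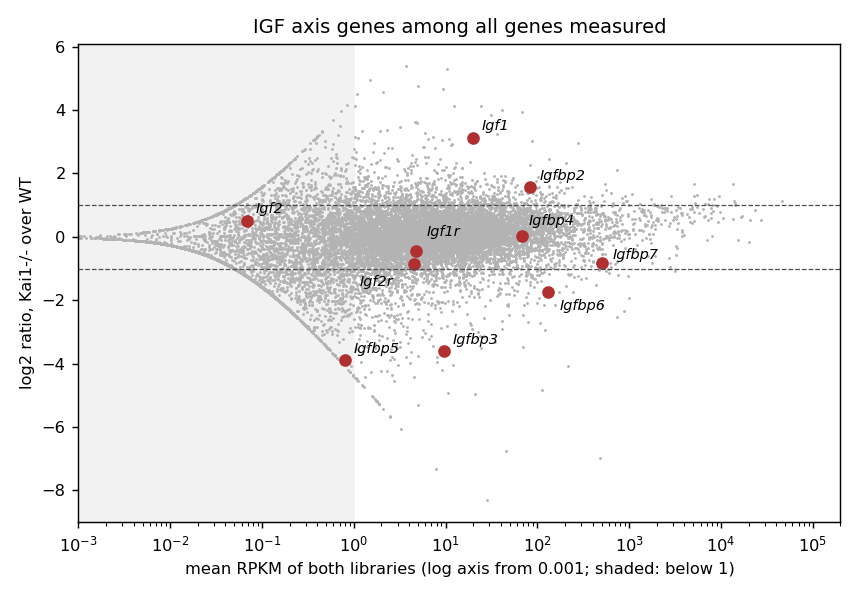
The log2 ratio (Kai1-/- over WT) of every gene against its mean RPKM (log axis from 0.001), with the IGF axis genes in red. Dashed lines mark 2-fold, and shading marks genes below the filter of 1 RPKM. Igf1 and Igfbp3 lie near the upper and lower edges of the genes with a like level.

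Because the binding proteins compete for the same ligands, their RNA was also compared as a pool. As deposited, the summed RPKM of Igfbp2 to Igfbp7 was 977 in WT cells and 620 in Kai1-/- cells, 63.5% of the WT sum. This percentage depends on how the libraries are scaled to each other, whereas the shares within a library do not. Igfbp7 made up 66.1% of the pool in WT cells and 58.7% in Kai1-/- cells. Igfbp6 held 20.8% and 9.80%, and Igfbp2 held 4.34% and 20.3%.

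Igfbp7 binds IGFs far more weakly than the others do, so the pool was also described without it. The sum of Igfbp2 to Igfbp6 was 332 RPKM in WT cells and 256 in Kai1-/- cells. Igfbp6 made up 61.2% of this sum in WT cells and 23.7% in Kai1-/- cells, and Igfbp2 made up 12.8% and 49.1%. The leading transcript of the pool was Igfbp6 in the WT library and Igfbp2 in the Kai1-/- library. Igfbp4 held 20.2% and 26.7%, and Igfbp3 held 5.35% and 0.528%. Igf1 RNA was 1.19% of the summed RPKM of Igfbp2 to Igfbp6 in WT cells and 13.8% in Kai1-/- cells.

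**Figure D4:**
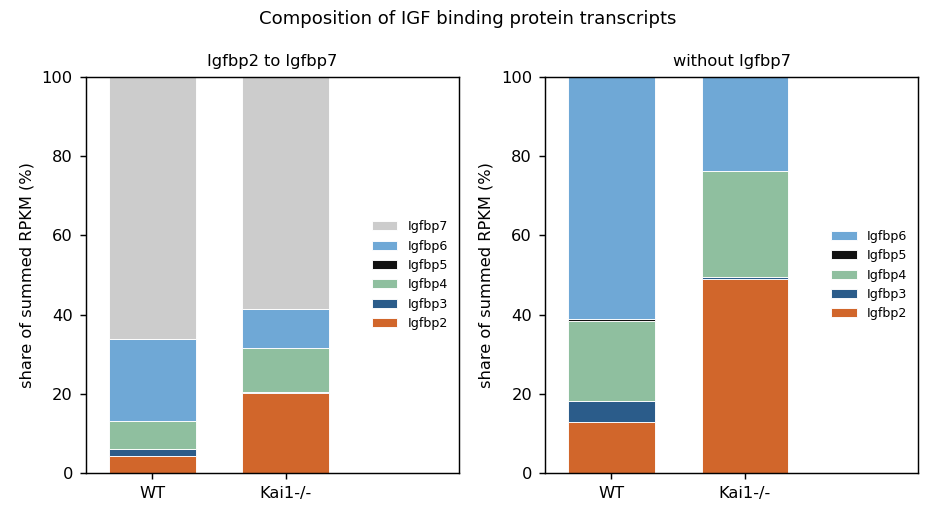
Share of each binding protein in the summed RPKM of Igfbp2 to Igfbp7 (left) and of Igfbp2 to Igfbp6 (right), as stacked bars for the WT and the Kai1-/- library. Without Igfbp7, Igfbp6 is the largest block in the WT bar (61.2%) and Igfbp2 in the Kai1-/- bar (49.1%).

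The other genes of the pathway, 81 measured genes in 7 lists, were described by the same counts. Of the 63 that passed the filter, 1 was more than 2-fold higher, 5 were lower and 57 were within 2-fold. Over all genes kept, 7.98% were higher and 7.81% lower. The median log2 ratio of the 63 was -0.14, against 0.08 over all genes kept. Scaled to Gapdh, none was higher and 15 were lower, beside 278 higher and 1856 lower of the 10068 genes kept.

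Of the genes that govern access to the IGFs, 6 were kept, of which 5 had a log2 ratio below 0 and the median was -0.82. Adam12, a protease that cuts IGFBP3 and IGFBP5, passed 2-fold with 5.56 RPKM in WT cells and 2.23 in Kai1-/- cells. The most highly expressed gene of the list was Ctsd (cathepsin D), with 899 and 494 RPKM. Pappa, which encodes the protease that cuts IGFBP4, was below the filter with 0.193 and 0.0224 RPKM.

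Of the 30 signalling genes downstream of IGF1R and the insulin receptor that were kept, 29 were within 2-fold and the median log2 ratio was -0.14. The exception was Grb10, an imprinted adaptor that inhibits both receptors, with 61.1 RPKM in WT cells and 19.5 in Kai1-/- cells, a log2 ratio of -1.64. The most highly expressed gene of the list in the Kai1-/- library was Mapk3 (ERK1), with 156 and 230 RPKM. Insr, the insulin receptor, was below the filter with 0.800 and 0.796 RPKM, and Ins1, Ins2 and Insrr were listed at 0 in both libraries.

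Growth hormone is the main inducer of IGF1 in liver, acting through GHR, JAK2 and STAT5. Of the 8 genes of that input, 7 were within 2-fold. Cish, a STAT5 target that dampens the receptor, was lower, with 3.19 RPKM in WT cells and 0.859 in Kai1-/- cells. Ghr itself, the most highly expressed of them, had 89.6 and 46.8 RPKM, a log2 ratio of -0.94. Any part of this input in the Igf1 values was not tested.

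Transcripts that FOXO factors induce when AKT signalling is low differed in both directions. Of 9 kept, Cdkn1b, which encodes the cell cycle inhibitor p27, was higher with 4.84 RPKM in WT cells and 10.5 in Kai1-/- cells. Gadd45a, a growth arrest gene, was lower with 7.70 and 1.68 RPKM. Cited2, a transcriptional co-regulator, was lower with 109 and 42.0 RPKM. The median log2 ratio of the list was 0.10, close to the 0.08 of all genes kept.

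None of the 7 genes of mannose 6-phosphate sorting, the second task of IGF2R, passed 2-fold. M6pr, the other receptor of that route, had 33.4 RPKM in WT cells and 25.1 in Kai1-/- cells. The 3 kept genes of IGF mRNA binding and imprinting were within 2-fold too, led by Hmga2 with 49.0 and 41.1 RPKM. Igf2bp2 and Igf2bp3, which encode proteins that bind Igf2 mRNA, were at 18.2 and 12.8 RPKM in the WT library, where Igf2 itself was near 0. H19 was not analysed here.

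**Figure D5:**
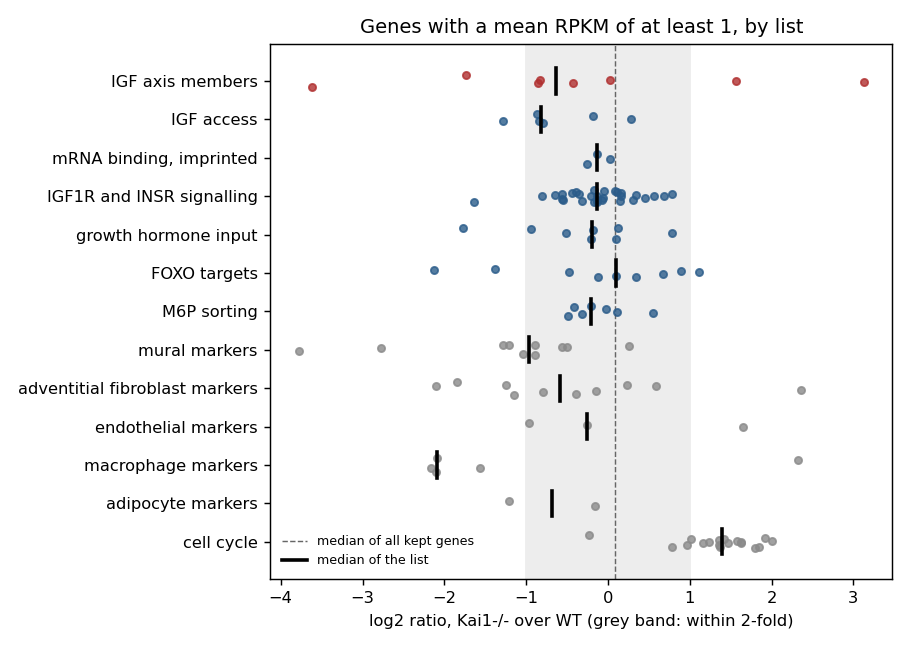
The log2 ratio (Kai1-/- over WT) of each gene with a mean RPKM of at least 1, by list, with the IGF axis in red, its pathway lists in blue and marker lists in grey. Thick bars are list medians, the dashed line is the median of all genes kept (0.08), and the grey band is 2-fold. Signalling genes lie within the band except Grb10, whereas the axis genes spread from -3.62 to 3.13.

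By distance in log2(RPKM + 0.1) over the 2 libraries, the genes nearest to Igf1 were Vnn1 (5.97 RPKM in WT cells and 31.2 in Kai1-/- cells), Asf1b and 4930486L24Rik, at distances of 0.61 to 0.67. Nearest to Igfbp5 were Slpi (1.5 and 0 RPKM), Mmp13 (1.83 and 0.0151 RPKM) and Tram1l1, at a distance of 0.19. With 2 libraries such closeness describes levels only. Of the genes outside the axis beside its genes on the chromosomes, Pmch and Top2a were more than 2-fold higher, as were 7.98% of all genes kept. Pmch, 154024 bases from Igf1, had 0.371 RPKM in WT cells and 1.99 in Kai1-/- cells. Top2a had 14.3 and 37.0 RPKM and lies beside Igfbp4, whose ratio was 1.02.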

How the data were processed

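RNA was sequenced from 1 WT and 1 Kai1-/- library of primary PCs. The authors aligned reads to mm9 (NCBI37) with TopHat 2.0.9 and Bowtie and deposited 1 RPKM value per RefSeq gene and library. Their Cuffdiff test was not used here, and counts and strand handling are not given in the sources used here.

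Of the deposited RPKM values, those of 38 rows that name no gene were dropped, and the rows of 153 symbols listed more than once were averaged. Ratios used log2(RPKM + 0.1), and the 10068 genes whose mean was 1 RPKM or more were kept. Reads were estimated from the spacing of low RPKM values in genes with a single transcript. Of these values, 63.7% (WT) and 54.6% (Kai1-/-) lay within 0.15 of a whole read, against 30% for evenly spread values. The depth was fitted to the same values, so the excess over 30% is no independent check. Reads and intervals are thus approximate. The steps were tested on simulated data.

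The members and lists were chosen with earlier results of these data known. The genes named were the 10 members, Cd82, list genes past 2-fold or else the most highly expressed of a list, chromosomal neighbours, and the 3 genes nearest to the members with the highest and lowest ratio. Pappa, Ghr, Insr and Igf2bp3, among others, were named after their values were seen. Positions came from GENCODE M1. Alternatives were other pseudocounts, filters and scalings. Python 3.11.15 was used with numpy 2.4.6, pandas 2.3.3, scipy 1.17.1 and matplotlib 3.10.9.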

Additional observations from a re-analysis of the deposited data

How the results depend on the processing

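No paired analysis was possible because there was a single library of either genotype. Of 76 member ratios under the other settings, 73 kept their sign, and the other 3 were those of Igfbp4. A change of filter or pseudocount cannot turn a sign, and the choice among repeated rows left the member ratios unchanged. Only the scalings of the libraries could turn a sign, so the count of 73 says little about stability. With a pseudocount of 1 RPKM the log2 ratios were 2.88 for Igf1, -0.72 for Igf2r, -2.99 for Igfbp3 and -1.35 for Igfbp5, and 0 pathway genes were higher. With the median ratio set to 0, Igfbp4 was at -0.053 and Igfbp7 at -0.91. With equal upper quartiles, Igf1 was at 3.0, Igfbp2 at 1.44, Igfbp4 at -0.10, Igfbp6 at -1.87 and Igfbp7 at -0.95, with 0 pathway genes higher and medians of -0.27 (pathway genes), -0.94 (IGF access), -0.27 (mRNA binding), -0.26 (signalling), -0.32 (growth hormone input), -0.021 (FOXO targets) and -0.33 (mannose 6-phosphate sorting). Scaled to Gapdh, Igf1 was at 2.63, Igf1r at -0.92, Igf2r at -1.34, Igfbp2 at 1.07, Igfbp3 at -4.08, Igfbp4 at -0.47, Igfbp6 at -2.24 and Igfbp7 at -1.33. That scaling gave 4 members lower, 278 genes higher and 1856 lower, 0 pathway genes higher and 15 lower, and medians, in the same order, of -0.64, -1.31, -0.64, -0.61, -0.68, -0.37 and -0.69. Without a filter 1205 genes were higher and 1878 lower, 8 pathway genes were lower, and medians were -0.70 (IGF access), -0.25 (mRNA binding) and -0.012 (FOXO targets). With a mean of at least 5 RPKM these counts were 511, 350 and 2, and medians were -0.51 (growth hormone input) and 0.34 (FOXO targets). Leaving Igfbp7 out of the sum, the shares in the WT and Kai1-/- libraries were 12.8% and 49.1% for Igfbp2, 5.35% and 0.528% for Igfbp3, 20.2% and 26.7% for Igfbp4, and 61.2% and 23.7% for Igfbp6, and Igfbp5 had 0.479% in the WT library. The ratio without a pseudocount was added after seeing the data. Depth limits Igf2 and the Kai1-/- value of Igfbp5, which rest on 12 reads or fewer, and the lack of replicates limits every difference.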
